A study of Mus musculus with 35 samples.

Results

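The genes described here encode actin, the proteins that hold its monomers and the proteins that cut, branch, cap and bundle its filaments, measured in CD45+ve microglia of the mouse brain at P6, P15 and 8 weeks. The 10 genes were chosen by name: Actb and Actg1 (the cytoplasmic actins), Tmsb4x and Tmsb10 (beta-thymosins), Pfn1 (profilin), Cfl1 (cofilin), Arpc2 (a subunit of the Arp2/3 complex), Coro1a (a coronin), Capg (a capping protein) and Lcp1 (L-plastin, a bundling protein). All 10 were found among the 55401 genes of the count table, and all 10 were among the 17612 genes that passed the filter of 0.5 CPM in at least 5 mice, where CPM is a gene's share of a library's counts scaled to a common library size. Wild-type C57Bl/6 mice of both sexes gave 1 library each, with no treatment in any group. The main comparison used 34 mice, which were 4 females and 6 males at P6, 6 females and 6 males at P15, and 6 females and 6 males at 8 weeks. P6 female 6, which the authors removed as an outlier, is given apart. The cells came from dissociated whole brain by immunopanning with an antibody to CD45, which also captures other CD45+ve leukocytes.

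Actin exists in cells as monomers and as filaments. Beta-thymosins bind monomers and keep them out of filaments, profilin loads monomers onto growing filament ends, and cofilin severs old filaments and returns monomers to the pool. The Arp2/3 complex starts new branches on existing filaments, coronins help to dismantle those branches, capping proteins block filament ends, and bundling proteins hold filaments side by side. Microglia use these proteins to move, to extend and retract processes and to engulf material.

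The libraries held 23316107 to 38965078 counts each, so every one of the 10 genes was counted far above the limit of 3 counts, which is 0.077 to 0.129 CPM here. Microglial markers (Tmem119, P2ry12, Sall1, Siglech, Gpr34 and Olfml3) were all detected in every mouse. Their mean log2 CPM was 8.44 to 9.33 at P6, 9.61 to 10.76 at P15 and 10.27 to 10.80 at 8 weeks. The mean log2 CPM of 15 neuron and neural progenitor markers, called the neural marker level here, fell from 4.75 to 6.47 at P6 to 2.83 to 5.6 at P15 and 1.83 to 3.43 at 8 weeks, so P6 and 8 weeks did not overlap. The 6 neuron markers alone averaged 5.77, 5.47 and 3.94, and P6 (4.77 to 6.31) and 8 weeks (2.82 to 4.93) overlapped. The 9 markers of neural progenitors and immature neurons averaged 5.92, 3.86 and 1.62, without overlap between P6 (4.54 to 6.58) and 8 weeks (0.88 to 2.43). Markers of dividing cells (Mki67, Top2a, Ccna2, Ccnb1 and Birc5) lay at 6.30 to 6.90 at P6, 3.24 to 4.36 at P15 and 0.47 to 1.5 at 8 weeks. The summed level of 4 astrocyte markers had a median of 417.9, 1911.6 and 1469.1 CPM over the same ages, and that of 5 oligodendrocyte lineage markers 247.9, 1225.5 and 441.2. By mean log2 CPM, astrocyte markers lay at 5.68 to 6.92, 5.89 to 8.27 and 6.28 to 7.73. Those of the oligodendrocyte lineage lay at 3.87 to 5.12, 4.98 to 7.62 and 3.88 to 6.03, so on this measure P6 and 8 weeks overlapped for both. No marker list was at 0 at any age. In bulk RNA, fewer cells of a type and less RNA per cell cannot be told apart.

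The promoters of Actg1 and of both thymosins are shown because these 3 genes moved by different amounts. RefSeq windows, from 250 bases before to 50 bases after each start site on GRCm38.p6, were found for 9 of the 10 genes, all but Actb. The CArG box, the binding motif of serum response factor (SRF), was searched on both strands. It was present in 1.63% of the 32841 windows and, among the 9 genes with a window, in that of Actg1. The GC box GGGCGG, searched on both strands, was present in 35.7% of windows and in those of 8 of the 9 genes, all but Capg. The 250 bases before each start site follow, 5′ to 3′ on the gene's strand, which is the minus strand for all 3 genes. Capitals mark the CArG box in Actg1 and the GC box, on either strand, in Tmsb10 and Tmsb4x. Tmsb10 has 3 start sites in RefSeq, and the outermost is shown.
Actg1, chr11:120348496-120348745: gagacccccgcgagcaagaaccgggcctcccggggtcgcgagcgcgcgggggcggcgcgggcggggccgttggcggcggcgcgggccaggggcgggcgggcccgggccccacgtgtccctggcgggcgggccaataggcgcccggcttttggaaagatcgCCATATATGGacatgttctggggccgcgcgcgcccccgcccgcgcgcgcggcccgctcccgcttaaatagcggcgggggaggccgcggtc
Tmsb10, chr6:72958749-72958998: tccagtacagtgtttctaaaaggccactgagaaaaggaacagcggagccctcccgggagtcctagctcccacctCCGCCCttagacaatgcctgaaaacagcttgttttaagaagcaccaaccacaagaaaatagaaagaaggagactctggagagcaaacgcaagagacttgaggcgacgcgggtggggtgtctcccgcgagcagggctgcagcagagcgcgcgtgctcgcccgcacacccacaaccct
Tmsb4x, chrX:167209219-167209468: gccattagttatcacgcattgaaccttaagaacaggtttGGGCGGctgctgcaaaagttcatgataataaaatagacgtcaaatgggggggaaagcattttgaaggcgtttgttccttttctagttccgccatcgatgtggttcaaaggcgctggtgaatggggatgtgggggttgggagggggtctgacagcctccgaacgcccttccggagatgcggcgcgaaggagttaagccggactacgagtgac
The CArG box of Actg1 begins 90 bases before the start site. A match describes letters only and is not evidence of binding.

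Together the 10 genes took 2.15% ± 0.191 (SD, n = 10) of all counts at P6, 1.53% ± 0.176 (SD, n = 12) at P15 and 1.35% ± 0.153 (SD, n = 12) at 8 weeks. Per kilobase of exon, and averaged over the ages, Actb was highest at 3140.1 CPM per kilobase, followed by Tmsb4x at 2407, Cfl1 at 506.7, Actg1 at 389.1, Pfn1 at 316.7, Arpc2 at 207.2, Coro1a at 165.7, Tmsb10 at 129.0, Lcp1 at 74.8 and Capg at 9.44. Actb ranked 18 and Capg 4856 of 17612 genes on this scale. Actb exceeded Tmsb4x in every one of the 34 mice. Neighbours further down were not always apart, since Cfl1 exceeded Actg1 in 8 of 12 mice at 8 weeks and Arpc2 exceeded Coro1a in 8 of 12. Tmsb10 changed places most. It exceeded Lcp1 in 10 of 10 mice at P6 and in 0 of 12 at 8 weeks.

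**Figure D1:**
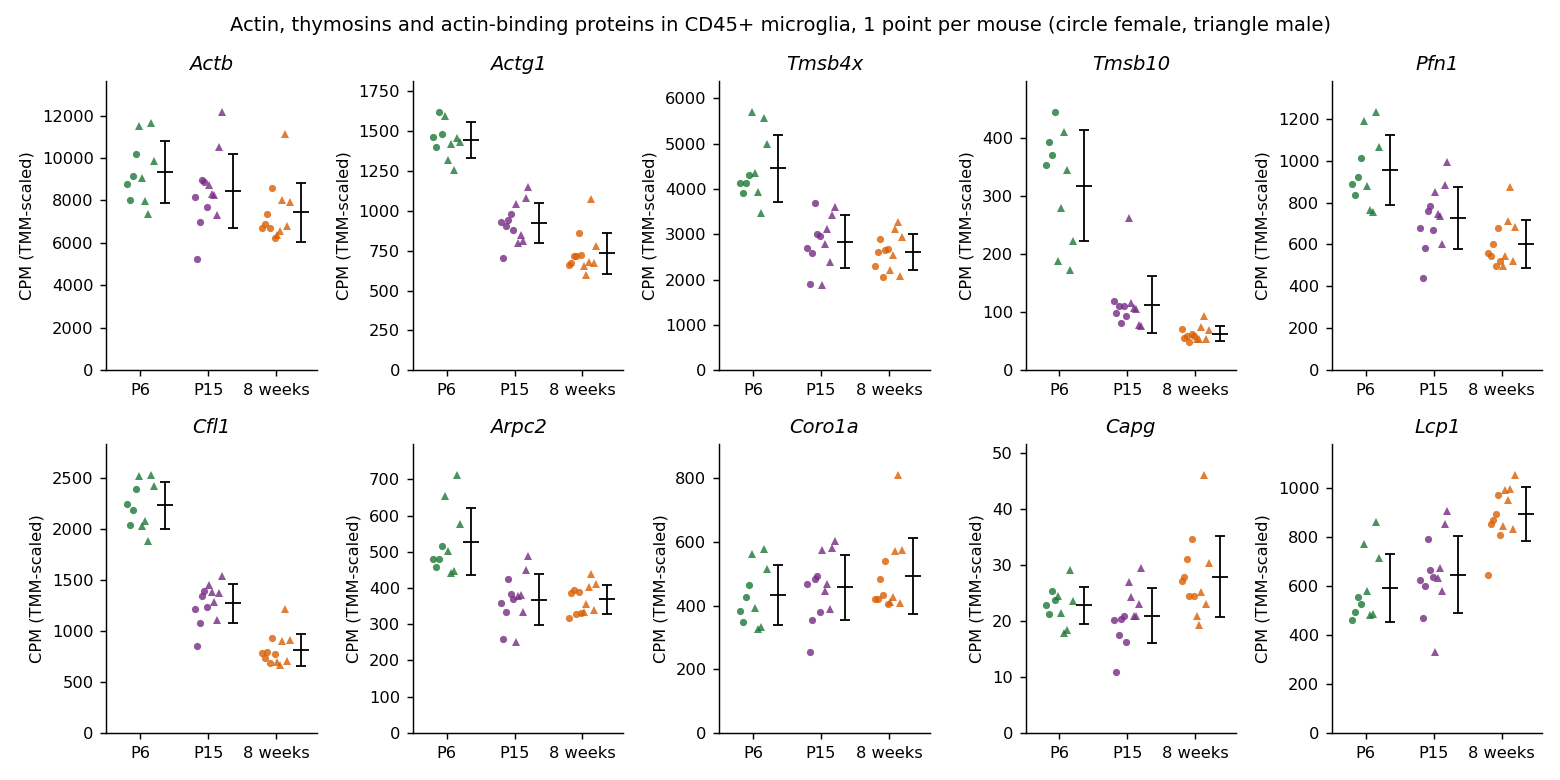
TMM-scaled CPM (linear axis from 0) of the 10 genes in each of the 34 mice at P6 (n = 10), P15 (n = 12) and 8 weeks (n = 12), with circles for females, triangles for males, and the mean ± SD as a bar beside the points. Actg1, Tmsb4x, Tmsb10, Cfl1 and Arpc2 at 8 weeks lay below every P6 mouse, whereas Lcp1 lay higher at 8 weeks with overlap.

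Between P6 and 8 weeks, 7 of the 10 genes fell, 2 rose (Capg and Lcp1), and Coro1a did not pass the test (edgeR quasi-likelihood test, FDR under 0.05). Capg lost its call, which left 1 riser, with each of the 7 mice that were left out in turn, and with the neural marker level as a covariate 9 fell and 0 rose. The background was large, since 36.6% of all tested genes fell and 37.8% rose in the same comparison. The median log2 fold change was -0.57 over the 10 genes and 0.04 over all tested genes. Cfl1 and Tmsb10 fell by significantly more than 2-fold, which 12.4% of all genes did. For 5 of the 10, every 8-week mouse lay below every P6 mouse, and 14.8% of all genes had that pattern. Between P6 and P15, 6 genes fell against 31.4% of all genes, and 0 rose against 30.4%. Tmsb10 was the 1 gene of the 10 that fell past 2-fold, against 4.85% of all genes, and for 2 (Actg1 and Cfl1) every P15 mouse lay below every P6 mouse, against 7.72%. Between P15 and 8 weeks, 4 genes fell against 23.9% and 2 rose against 24.0% of all genes. The comparisons with P6 share the P6 mice, and those with P15 share the P15 mice.

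**Figure D2:**
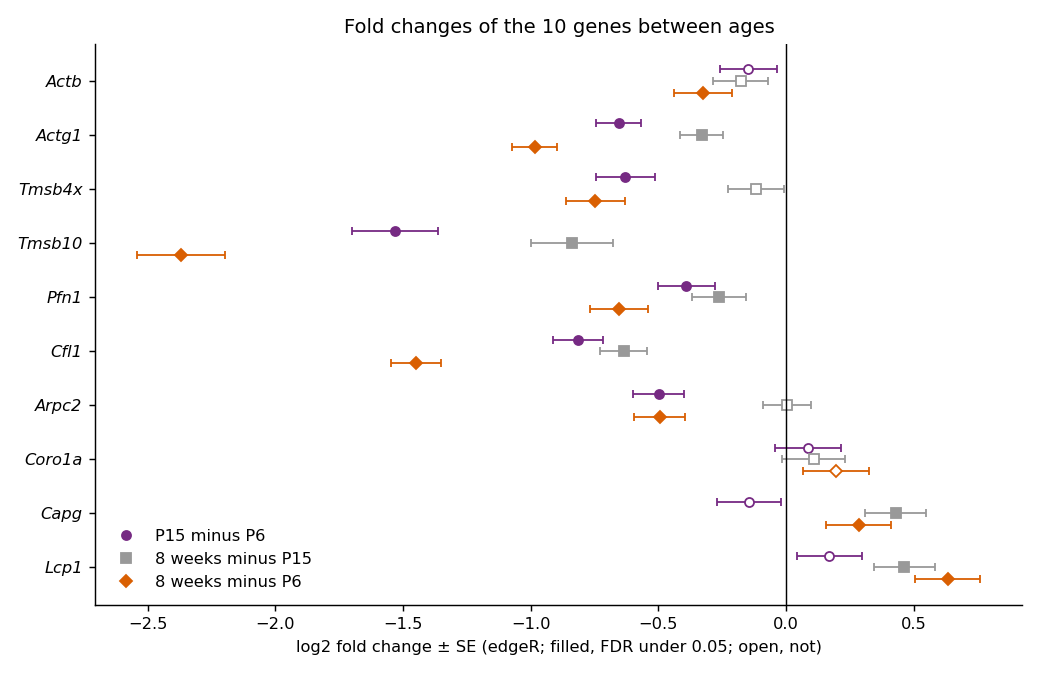
Log2 fold change ± SE (x axis) of the 10 genes (rows) for P15 minus P6, 8 weeks minus P15 and 8 weeks minus P6 in 34 mice, with filled symbols at FDR under 0.05. Tmsb10 and Cfl1 lie furthest left at 8 weeks minus P6, at -2.37 and -1.45, and Lcp1 furthest right at 0.63.

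Both cytoplasmic actins fell, Actg1 by more than Actb. Actg1 (gamma actin, chr11:120345690-120348542) ranged from 1259 to 1621 CPM with a median of 1445 at P6. It ranged from 704.7 to 1151 with a median of 918.7 at P15, and from 595.7 to 1078 with a median of 696.5 at 8 weeks. No P15 or 8-week mouse reached the lowest P6 mouse. Its log2 fold change was -0.66 ± 0.0886 (SE) from P6 to P15 (FDR = 1.59e-07) and -0.33 ± 0.084 from P15 to 8 weeks (FDR = 0.00187), which added to -0.98 ± 0.0887 over the whole interval (FDR = 1.68e-11).

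Actb (beta actin, chr5:142903115-142906754), often used as a reference gene, overlapped between all ages. It ranged from 7386 to 11667 CPM with a median of 9112 at P6, from 5263 to 12170.1 with a median of 8279 at P15, and from 6211 to 11125 with a median of 6849 at 8 weeks. The fall from P6 to 8 weeks was -0.32 ± 0.113 (SE) on the log2 scale (FDR = 0.0105), and neither step alone passed the test (-0.15, FDR = 0.263, and -0.18, FDR = 0.167). The step from P15 to 8 weeks passed with library-size scaling (-0.19, FDR = 0.0392), without P15 female 2 (-0.24, FDR = 0.0432) and without 8 weeks male 4 (-0.24, FDR = 0.0315). With the neural marker level as a covariate, both steps passed, at -0.54 from P6 to P15 (FDR = 3.81e-05) and -0.70 from P15 to 8 weeks (FDR = 1.52e-05). That level overlapped little between P15 and 8 weeks, a limit on the latter value that is given below. Within females alone the comparison of 8 weeks with P6 gave -0.35 (FDR = 0.0639) and within males alone -0.30 (FDR = 0.0871). Scaling by library size, which moved the median log2 fold change of all genes from -0.01 to -0.14 between P6 and P15, gave Actb a fall of -0.28 at that step (FDR = 0.00286).

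The share of Actg1 relative to Actb was measured within each library, which needs no scaling between libraries. Actg1 counts were 12.5% to 17.8% of Actb counts at P6 (median 15.6%), 9.46% to 13.4% at P15 (median 11.1%) and 8.45% to 11.6% at 8 weeks (median 9.82%). The log2 ratio fell by 0.49 from P6 to P15 and by 0.66 from P6 to 8 weeks (2-sided permutation tests, adjusted p = 8e-05 for both over 12 tests, the smallest that the permutations could give), and by 0.16 from P15 to 8 weeks (permutation test, adjusted p = 0.0154). Every 8-week mouse had a lower ratio than every P6 mouse.

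**Figure D3:**
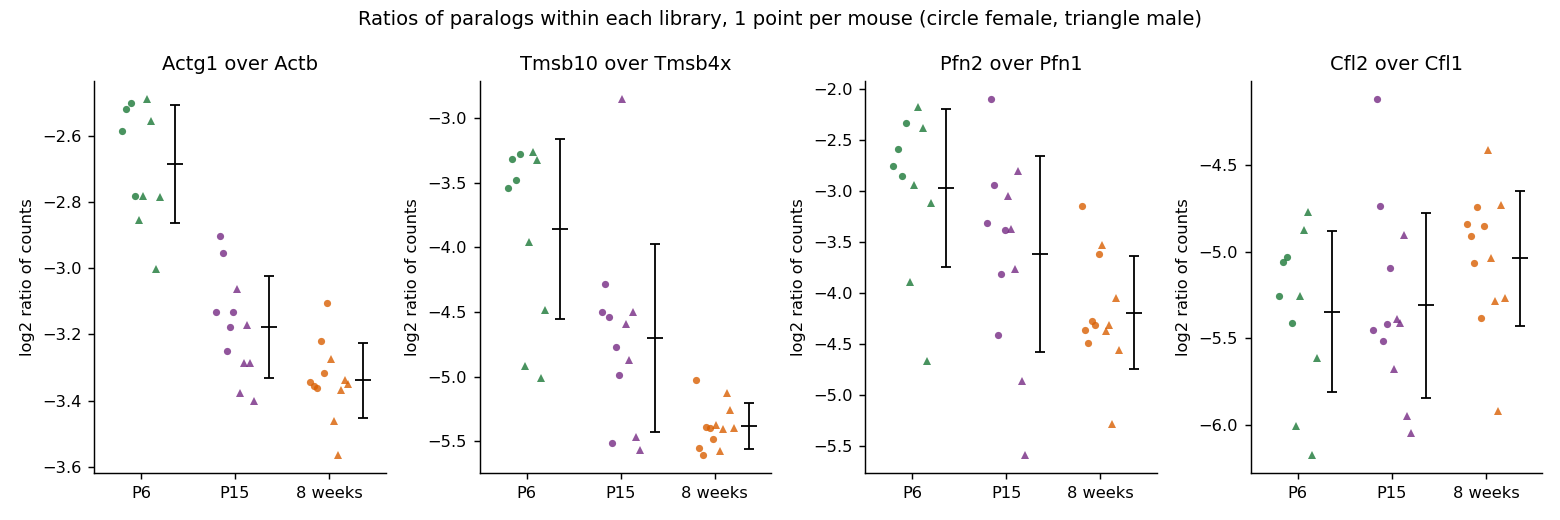
Log2 ratio of counts (y axes) within each library for Actg1 over Actb, Tmsb10 over Tmsb4x, Pfn2 over Pfn1 and Cfl2 over Cfl1 in 34 mice by age, with circles for females, triangles for males, and bars for the mean ± SD. The mean log2 ratio of Actg1 to Actb went from -2.68 at P6 to -3.34 at 8 weeks, and that of Tmsb10 to Tmsb4x from -3.86 to -5.38.

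The beta-thymosins both fell, and Tmsb10 fell furthest of the 10 genes. Tmsb10 (chr6:72957347-72958748) ranged from 172.3 to 444.7 CPM at P6 with a median of 349.5. It ranged from 75.9 to 261.7 at P15 with a median of 106.0 and from 48.9 to 93.5 at 8 weeks with a median of 59.5. All 8-week mice lay below all P6 mice, and 1 P15 mouse, male 1 at 261.7 CPM, lay within the P6 range. The log2 fold change was -1.53 ± 0.169 (SE) from P6 to P15 (FDR = 3.11e-09), -0.84 ± 0.161 from P15 to 8 weeks (FDR = 9.14e-05) and -2.37 ± 0.172 in all (FDR = 1.2e-13), a 5.16-fold lower level. With the neural marker level as a covariate the first step was -0.991 (FDR = 1.24e-05) and was no longer called past 2-fold. The later step was then -0.01 (FDR = 0.978) and the whole fall -0.999 (FDR = 0.00682). This covariate has 1 slope for all ages, whereas by age the Tmsb10 slope was 0.70 at P6, 0.44 at P15 and -0.01 ± 0.147 (SE) at 8 weeks. The 8-week mice did not show the slope that was applied to them, so the adjusted later step does not show that the fall is absent. The study placed Tmsb10 in a miRNA–mRNA network as a target of miR-152-3p from negative correlations in these same mice together with outside experimental evidence, so its fall here is not independent evidence of that link.

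Tmsb4x (chrX:167207093-167209315), the more abundant thymosin, fell between P6 and P15, and its later step depended on a term for the neural marker level. It ranged from 3464 to 5695 CPM at P6 (median 4224), from 1889 to 3683 at P15 (median 2867) and from 2051 to 3274 at 8 weeks (median 2637). The P6 and 8-week mice did not overlap, whereas the P15 and 8-week mice did. The log2 fold change was -0.63 ± 0.116 (SE) from P6 to P15 (FDR = 2.27e-05) and -0.12 ± 0.11 from P15 to 8 weeks (FDR = 0.386). With the neural marker level as a covariate the later step was -0.65 (FDR = 7.17e-05). Tmsb10 counts were 3.1% to 10.4% of Tmsb4x counts at P6 (median 8.77%), 2.1% to 13.9% at P15 (median 3.91%) and 2.05% to 3.07% at 8 weeks (median 2.37%). P6 and P15 overlapped, and P15 male 1, the highest, lay above every P6 mouse. The log2 ratio fell by 1.52 from P6 to 8 weeks (permutation test, adjusted p = 8e-05), by 0.84 from P6 to P15 (adjusted p = 0.0237) and by 0.68 from P15 to 8 weeks (adjusted p = 0.00302). At P6 this ratio was -5.01 in male 5, where the neural marker level was 4.75, and -3.27 in male 3, where that level was 6.47, and its part in the fall of the ratio was not tested.

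Profilin and cofilin, which feed and recycle filaments, fell at both steps. Pfn1 (chr11:70651850-70654644) ranged from 755.9 to 1232 CPM at P6 (median 903.8), from 438.1 to 993.8 at P15 (median 740.6) and from 495.6 to 873.5 at 8 weeks (median 552.5). The ages overlapped throughout. Its log2 fold change was -0.39 ± 0.112 (SE) from P6 to P15 (FDR = 0.00337), -0.26 ± 0.106 from P15 to 8 weeks (FDR = 0.0409) and -0.65 ± 0.112 from P6 to 8 weeks (FDR = 4.87e-06). With P6 female 6 added, the step from P15 to 8 weeks no longer passed the test (FDR = 0.0606). Pfn2, the second profilin, fell by 1.95 ± 0.234 on the log2 scale from P6 to 8 weeks (FDR = 8.57e-09), from 127.9 ± 42.4 CPM (SD, n = 10) to 33.9 ± 11.3 (SD, n = 12). The log2 ratio of Pfn2 to Pfn1 fell by 1.22 over that interval (permutation test, adjusted p = 0.0018). This ratio ran with the neural marker level at P6. It was lowest at P6 in male 5, at -4.67, where the neural marker level was 4.75, and highest in male 3, at -2.18, where that level was 6.47. Within groups the slope, in log2 units per log2 unit of neural marker level, was 0.795 for Pfn2 (FDR = 8.99e-13) and -0.243 for Pfn1, and its part in the fall of the ratio was not tested.

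Cfl1 (chr19:5490455-5495201) had the smallest adjusted p of the 10 from P6 to 8 weeks. It ranged from 1882 to 2535 CPM at P6 (median 2219.7), from 854.7 to 1537 at P15 (median 1313) and from 666.9 to 1221 at 8 weeks (median 779.9). Every P15 and every 8-week mouse lay below every P6 mouse. The log2 fold change was -0.81 ± 0.0966 (SE) from P6 to P15 (FDR = 1.28e-08), -0.64 ± 0.0919 from P15 to 8 weeks (FDR = 1.64e-06) and -1.45 ± 0.0972 in all (FDR = 1.42e-14), a 2.73-fold lower level. Cfl1 too was selected by the study, as a target of miR-455-3p, on the same 2 grounds. The study also lists a Cfl1 primer pair for mRNA qPCR. It reports that the network targets it tested by qPCR across ages ran opposite to their miRNAs. Cfl2, the muscle-type cofilin, fell alongside by 1.19 ± 0.118 (FDR = 1.25e-10), and the difference in the log2 ratio of Cfl2 to Cfl1 was 0.31 (permutation test, adjusted p = 0.131).

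Among the genes of filament branching, Arpc2 fell between P6 and P15 with a difference near 0 after that, whereas Coro1a did not pass the test at either step. Arpc2 (chr1:74236084-74268209) ranged from 442.8 to 712.8 CPM at P6 (median 491.4), from 250 to 489.2 at P15 (median 373.7) and from 316.9 to 437.8 at 8 weeks (median 370.0). All 8-week mice lay below all P6 mice. The log2 fold change was -0.50 ± 0.1 (SE) from P6 to P15 (FDR = 7.86e-05) and 0.004 ± 0.0951 from P15 to 8 weeks (FDR = 0.975), with a 95% interval of -0.18 to 0.19 for the latter. With the neural marker level as a covariate the latter was a fall of -0.55 (FDR = 9.73e-06).

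Coro1a (chr7:126699773-126707787), the coronin of leukocytes, ranged from 326.1 to 577.2 CPM at P6 (median 409.8), from 255.8 to 603.4 at P15 (median 468.1) and from 405.6 to 811.4 at 8 weeks (median 430.3). The 3 ages overlapped. Its log2 fold change from P6 to 8 weeks was 0.20 ± 0.131 (SE), with a 95% interval of -0.06 to 0.45 (FDR = 0.173). With the neural marker level as a covariate it was -0.72 (FDR = 0.0134).

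Lcp1 and Capg rose from P6 to 8 weeks, a direction that reversed for both with the neural marker level as a covariate (-0.61 and -0.46). Lcp1 (chr14:75131101-75230842), an actin bundler of blood-lineage cells, ranged from 460.8 to 862.5 CPM at P6 (median 541.8), from 330.8 to 906.7 at P15 (median 634.6) and from 645.4 to 1055 at 8 weeks (median 880.9). The ages overlapped, and the 8-week median lay above the highest P6 mouse. The log2 fold change was 0.46 ± 0.119 (SE) from P15 to 8 weeks (FDR = 0.00201) and 0.63 ± 0.128 from P6 to 8 weeks (FDR = 4.91e-05), a 1.55-fold higher level. From P6 to P15 it was 0.17 ± 0.126 (FDR = 0.247), and without P15 male 1, which had the lowest Lcp1 of the 34 mice, that step became 0.24 and passed the test.

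Capg (chr6:72544391-72562983), a gelsolin relative that caps filaments without cutting them, was the least abundant of the 10. It ranged from 17.8 to 29.0 CPM at P6 (median 23.2), from 10.9 to 29.4 at P15 (median 20.9) and from 19.3 to 46.1 at 8 weeks (median 26.1). The ages overlapped. The log2 fold change from P15 to 8 weeks was 0.43 ± 0.119 (SE, FDR = 0.00387), and that from P6 to 8 weeks was 0.29 ± 0.127 (FDR = 0.0426). The latter call was lost under most alternatives, including leaving out 8 weeks male 4, the highest Capg library (0.17, FDR = 0.136), or any 1 P6 female. Lcp1 and Capg are also made by other leukocytes. The mean log2 CPM of 7 neutrophil and lymphocyte markers was 0.8 to 2.28 at P6, 0.97 to 3.28 at P15 and 1.26 to 3.0 at 8 weeks, and their summed level had a median of 24.3, 40.9 and 76.2 CPM, with none at 0 throughout. For 9 monocyte and macrophage markers the mean log2 CPM was 4.18 to 5.18, 3.99 to 5.35 and 4.29 to 5.15, and their summed level had a median of 976, 859.5 and 482.7 CPM. The part of these cells in the rises was not tested.

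Within an age, the same mice held the extremes of several genes. P6 male 5 had the highest level of 7 of the 10 at P6, P15 male 6 of 8 at P15 and 8 weeks male 4 of 9 at 8 weeks. At P6 the highest Actg1 was in female 3 and the highest Tmsb4x in male 1, and at P15 the highest Tmsb4x was in female 4. Tmsb10 ran the other way at these 2 ages, where P6 male 5 and P15 male 6 had the lowest Tmsb10. These 2 mice also had the lowest neural marker level of their ages, at 4.75 and 2.83, and 8 weeks male 4 was at 2.01. At the other end, P15 female 2 had the lowest level of 6 of the 10 and the highest neural marker level at P15, 5.6. P15 male 1, at 5.47, had the lowest Tmsb4x, Arpc2 and Lcp1 and the highest Tmsb10. It also had the lowest microglial marker level (9.61) and the highest oligodendrocyte marker level (7.62) at P15.

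The neural marker level was set against each gene within the age and sex groups, in 34 mice and in a test over all genes. The slope was negative for 9 of the 10 genes and passed the test in all 9, against 24.2% of all genes with a negative slope. It ran from -0.15 ± 0.0459 (SE, FDR = 0.00641) for Actg1 to -0.37 ± 0.0439 (FDR = 2.56e-08) for Lcp1, in log2 units per log2 unit of neural marker level. For Tmsb10 it was positive, 0.39 ± 0.0802 (FDR = 0.000128), against 24.5% of all genes. Without P15 male 1 the Tmsb10 slope was 0.28 (FDR = 0.00171). By age, it was 0.70 ± 0.0525 at P6 (FDR = 3.22e-05), 0.44 ± 0.106 at P15 (FDR = 0.00542) and -0.01 ± 0.147 at 8 weeks (FDR = 0.982), where 0 of the 10 slopes passed the test and 4.93% of all genes rose and 0.295% fell with it. For the other 9 genes the 8-week slopes were still negative, from -0.33 ± 0.173 for Capg to -0.09 ± 0.133 for Tmsb4x, with SEs of 0.0906 to 0.173 against 0.036 to 0.0687 over all ages. The relation was therefore not shown to be absent at 8 weeks.

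**Figure D4:**
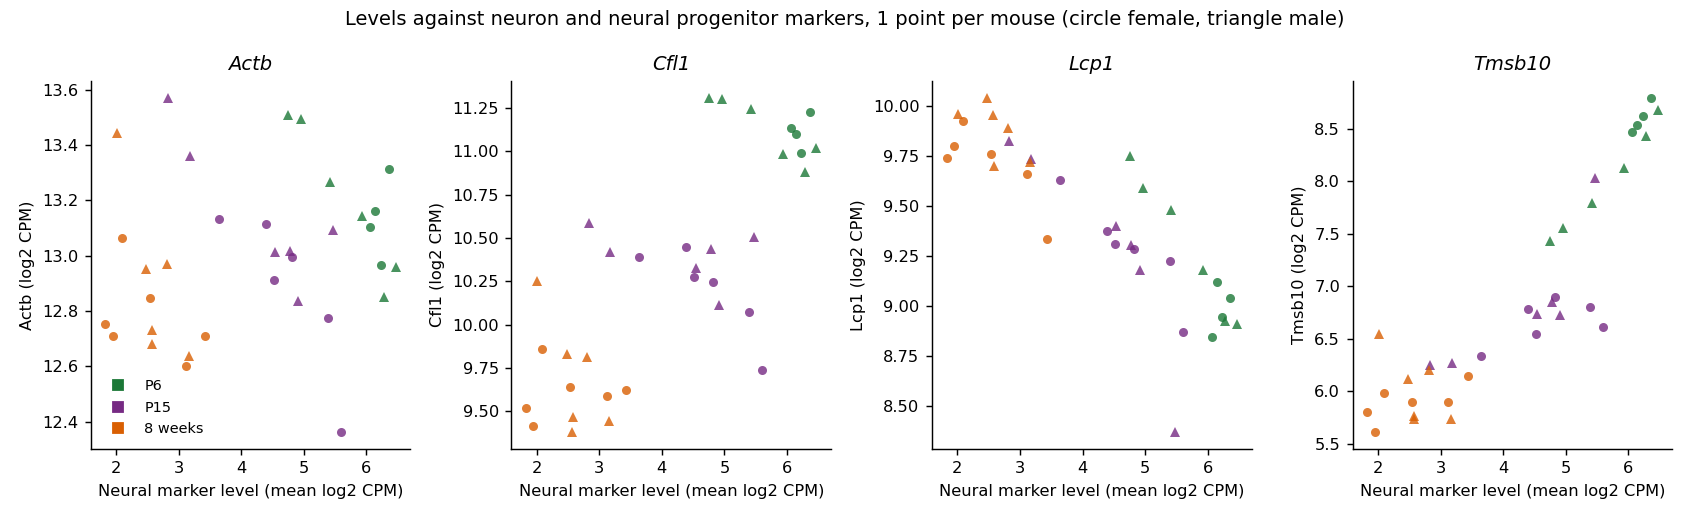
Log2 CPM (y axes) of Actb, Cfl1, Lcp1 and Tmsb10 against the neural marker level (x axes, mean log2 CPM of 15 neuron and neural progenitor markers), with 1 point per mouse, colours for the 3 ages, circles for females and triangles for males. Within P6 and P15, Lcp1 ran down and Tmsb10 ran up with the neural marker level, and the 8-week mice at 1.83 to 3.43 did not overlap the P6 mice at 4.75 to 6.47 on the x axis.

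With the neural marker level as a covariate, the fall from P6 to 8 weeks was larger for 6 of the 7 genes that fell, for example -1.24 for Actb (FDR = 7.02e-07) and -1.97 for Cfl1 (FDR = 6.05e-10). It was smaller for Tmsb10, as given above. Lcp1 turned from a rise to -0.61 (FDR = 0.00226), Coro1a likewise turned negative and passed, and Capg turned to -0.46 (FDR = 0.136). Because the level did not overlap between P6 and 8 weeks, age and neural marker level cannot be told apart over that interval, and the directions of Lcp1, Coro1a and Capg depended on this term.

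No difference between females and males passed the test. At P6, P15 and 8 weeks, 0 of the 10 genes differed between the sexes in edgeR, limma-voom or DESeq2, against 0.0511%, 0.0681% and 0.114% of all genes in edgeR. At an unadjusted p under 0.05 there were 1, 1 and 0 genes, namely Tmsb10 at P6 and Capg at P15, against 7.1%, 18.2% and 2.94% of all genes. Tmsb10 was 390.6 ± 39.6 CPM (SD, n = 4) in P6 females and 269.7 ± 93.6 (SD, n = 6) in P6 males, with a log2 difference, male minus female, of -0.53 ± 0.249 (SE, FDR = 0.696). The neural marker level was 6.06 to 6.36 in P6 females and 4.75 to 6.47 in P6 males, and its part in this difference was not tested. At P15, all 10 estimates were higher in males, by 0.03 to 0.46 on the log2 scale, with a median of 0.23 against 0.014 over all tested genes. The neural marker level at P15 was 3.64 to 5.6 in females and 2.83 to 5.47 in males, and its part was not tested. The change from P6 to 8 weeks did not pass a test of difference between the sexes for any of the 10, with 1 at an unadjusted p under 0.05 (Tmsb10, 0.69 ± 0.336, FDR = 0.858) against 0.0% of all genes by FDR and 5.1% by unadjusted p. Within females, 6 genes fell (32.2% of all genes) and 1 rose (32.6%) between P6 and 8 weeks. Within males, 6 fell (31.3%) and 1 rose (31.5%), and Actb and Capg passed in neither sex alone.

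P6 female 6 stood apart from the other P6 mice. For 9 of the 10 genes its level was below the lowest of the other 10 P6 mice, for example 5158 CPM for Actb, 1530 for Cfl1 and 226.3 for Lcp1. Its Tmsb10, at 507.9 CPM, was above the highest of them. Its microglial marker level was 7.32, below every other mouse. Its markers of neurons (7.53), astrocytes (7.91) and the oligodendrocyte lineage (6.8) lay above those of the other P6 mice, which reached 6.31, 6.92 and 5.12. Within the range of those mice were its markers of neural progenitors and immature neurons (6.47), endothelial cells (4.44), and smooth muscle and pericytes (5.77). Below it were those of monocytes and macrophages (3.6), neutrophils and lymphocytes (0.3) and dividing cells (5.74).

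A wider set of 133 genes of the actin cytoskeleton in 15 lists was compared in the same fit, with 125 tested. From P6 to 8 weeks, 56 fell (44.8%, against 36.6% of all genes) and 36 rose (28.8%, against 37.8%), with a median log2 fold change of -0.18 (0.04 over all genes). Without the 10 genes, 49 of 115 fell and 34 rose, with a median of -0.16. Shares of single lists were not tested against these backgrounds, so their counts only describe the lists. Many of the genes also moved with the neural marker level within groups, and the slopes printed have the same unit and FDR threshold as above. The part of neural cells in these changes was not tested. The lists were neither independent of one another nor of earlier results of these data.

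In the Arp2/3 complex, every gene that passed the test from P6 to 8 weeks fell. Of its 10 genes, 7 fell from P6 to 8 weeks (70.0%, against 36.6% of all genes), 0 rose, and the median was -0.52. Arpc5 fell by 0.83 ± 0.0958 (SE, FDR = 3.53e-09), with no overlap between 236.6 to 339.9 CPM at P6 and 123.0 to 171.6 at 8 weeks. Arpc1b fell by 0.78 ± 0.113 (FDR = 2.87e-07). Actr3, Arpc1a, Arpc3 and Arpc4 also fell, by 0.47 to 0.62, and Actr2 (0.11), Actr3b (0.25) and Arpc5l (0.03) did not pass. From P6 to P15, 6 fell and 1 rose, which was Actr3b (0.62 ± 0.248, FDR = 0.0301), with a slope of 0.717 on the neural marker level. Arpc5 and Arpc1b had slopes of -0.262 and -0.32. Actr3, Arpc1a, Arpc3, Arpc4, Actr2, Actr3b and Arpc5l were named after their values were seen.

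The activators of the complex moved in both directions. Of 17, 9 rose (52.9%, against 37.8% of all genes) and 5 fell (29.4%, against 36.6%) from P6 to 8 weeks. Abi3, a partner of the WAVE complex, rose by 2.29 ± 0.131 (SE, FDR = 2.58e-16), from 68.5 to 138.1 CPM at P6 to 402.4 to 652.3 at 8 weeks, with no overlap. Nckap1l, the WAVE subunit of blood-lineage cells, rose by 0.71 ± 0.119 (FDR = 3.58e-06). Cttn (cortactin) fell by 2.22 ± 0.243 (FDR = 1.19e-09) and Wasf1 fell by 1.86 ± 0.272 (FDR = 3.27e-07). Both of these had steep positive slopes on the neural marker level, 0.82 and 0.91, whereas Abi3 and Nckap1l had slopes of -0.35 and -0.36.

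Among cofilin's relatives and regulators, 7 of 16 fell (43.8%) and 5 rose (31.2%), against 36.6% and 37.8% of all genes. Ssh2, a phosphatase that activates cofilin, rose by 1.41 ± 0.139 (SE, FDR = 1.32e-10), with 180.2 to 331.0 CPM at P6 and 417.6 to 756.2 at 8 weeks. Pdxp, a second cofilin phosphatase, fell by 1.48 ± 0.23 (FDR = 9.25e-07), Cfl2 as above, and Cap2 rose by 1.16 ± 0.239 (FDR = 7.04e-05). Their slopes on the neural marker level were -0.298 for Ssh2, 0.691 for Pdxp, 0.695 for Cap2 and 0.311 for Cfl2. Of the 7 coronins, 3 rose (42.9%) and 2 fell (28.6%). Coro1c fell by 1.498 ± 0.083 (FDR = 1.13e-16), with no overlap between P6 and 8 weeks, and Coro2b fell by 1.11 ± 0.228 (FDR = 6.38e-05). Coro6 rose by 2.35 ± 0.213 (FDR = 2e-11) from a low 0.604 CPM, and Coro2a rose by 0.40 ± 0.128 (FDR = 0.00576). Coro2b had a slope of 0.764 on the neural marker level, Coro1c of -0.141 and Coro2a of -0.356, and that of Coro6 did not pass (-0.01).

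Of the 13 formins, which build unbranched filaments, 6 rose (46.2%) and 4 fell (30.8%), against 37.8% and 36.6% of all genes. Diaph3 fell by 3.50 ± 0.159 (SE, FDR = 5.64e-19), from 22.7 ± 4.34 CPM (SD, n = 10) to 1.92 ± 0.453 (SD, n = 12), and Fhod3 by 1.62 ± 0.329 (FDR = 5.4e-05). Daam2 rose by 1.52 ± 0.298 (FDR = 3.33e-05) and Inf2 by 1.103 ± 0.23 (FDR = 7.63e-05). The slopes on the neural marker level were 0.961 for Fhod3, 0.757 for Daam2 and 0.608 for Inf2, and that of Diaph3 did not pass (-0.08). Of the 16 tested gelsolin relatives and capping proteins, 7 fell (43.8%) and 5 rose (31.2%), Capg included. Add2 fell by 2.91 ± 0.289 (FDR = 1.63e-10) and Vill fell by 2.84 ± 0.162 (FDR = 2.24e-16), while Avil rose by 1.21 ± 0.452 (FDR = 0.0172) and Tmod1 by 0.93 ± 0.12 (FDR = 2.94e-08). Avil was scarce, with means of 0.194 CPM at P6 and 0.419 at 8 weeks, close to the limit of 3 counts. Add2 and Avil had slopes of 0.904 and 0.741 on the neural marker level, Vill had one of -0.317, and that of Tmod1 did not pass (0.09).

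Bundling and cross-linking proteins were even, with 3 of 10 up and 3 down (30.0% each, against 37.8% and 36.6% of all genes). Fscn1 (fascin, a bundler) rose by 1.16 ± 0.106 (SE, FDR = 2.19e-11), with 307.7 to 492.9 CPM at P6 and 732.6 to 1160.4 at 8 weeks. Flna (filamin A, a cross-linker) fell by 1.19 ± 0.105 (FDR = 1.05e-11) and Flnc fell by 3.52 ± 0.283 (FDR = 1.27e-12). On the neural marker level the slope was 0.73 for Flnc and -0.206 for Fscn1, and that of Flna did not pass (-0.14). Of the 4 tropomyosins, which coat filaments, 3 fell (75.0%, against 36.6%) and 0 rose. Tpm4 fell by 1.95 ± 0.0787 (FDR = 2.62e-20), with no overlap, and Tpm2 by 0.84 ± 0.2 (FDR = 0.000373). In the myosin II list, Myh10 fell by 2.10 ± 0.151 (FDR = 8.14e-14), Myl6 by 0.68 ± 0.0935 (FDR = 1.04e-07), and Myh14 rose by 0.76 ± 0.258 (FDR = 0.00884). Myh14 and Myh10 had slopes of 0.759 and 0.336 on the neural marker level, and those of Tpm4, Tpm2 and Myl6 did not pass.

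The GTPases that steer these proteins also moved both ways, with 4 of 9 down (44.4%, against 36.6% of all genes) and 2 up (22.2%, against 37.8%). Rhob rose by 1.19 ± 0.111 (SE, FDR = 3.87e-11), with 1678 to 2533 CPM at P6 and 3424 to 6204 at 8 weeks, and Rhoh by 1.35 ± 0.107 (FDR = 8.94e-13). Rhoc fell by 0.86 ± 0.1 (FDR = 3.88e-09) and Rac3 by 0.63 ± 0.12 (FDR = 2.31e-05). Rhob and Rhoh had slopes of -0.293 and -0.27 on the neural marker level, and those of Rhoc and Rac3 did not pass. Of the proteins that link actin to the membrane, Ezr (ezrin) fell by 1.43 ± 0.192 (FDR = 6.91e-08), with a slope of 0.561 on the neural marker level, and Rdx and Msn did not pass. Acta2, the smooth muscle actin, averaged 19.3 CPM in P6 mice, 33.1 in P15 mice and 35.2 in 8-week mice, and its difference of 0.84 ± 0.409 from P6 to 8 weeks did not pass (FDR = 0.0652), with a slope of 0.656 on the neural marker level. The other tested actin and thymosin genes were scarce, since Acta1 fell by 0.85 ± 0.339 (FDR = 0.0244), Actg2 fell by 3.65 ± 0.606 (FDR = 2.91e-06) and Tmsb15b1 by 0.87 ± 0.352 (FDR = 0.0258), all at means under 1 CPM at P6. Of these, Acta1 and Tmsb15b1 had slopes of 0.619 and 0.557 that passed, and Actg2 one of 0.593 that did not. The 8-week mean of Actg2 was 0.0642 CPM, below the limit of 3 counts.

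SRF and its coactivators, which raise transcription of actin genes when free actin monomers run low, did not move one way. Srf fell by 0.82 ± 0.104 (SE, FDR = 2.52e-08), from 85 ± 12.9 CPM (SD, n = 10) at P6 to 48.4 ± 9.94 (SD, n = 12) at 8 weeks. Mrtfa rose by 0.67 ± 0.074 (FDR = 1.45e-09) and Mrtfb by 0.53 ± 0.0809 (FDR = 7.33e-07). On the neural marker level Srf and Mrtfa had slopes of -0.15 and -0.165, and that of Mrtfb did not pass (0.04). Whether these changes bear on Actg1, whose promoter with its CArG box is given above, was not tested.

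**Figure D5:**
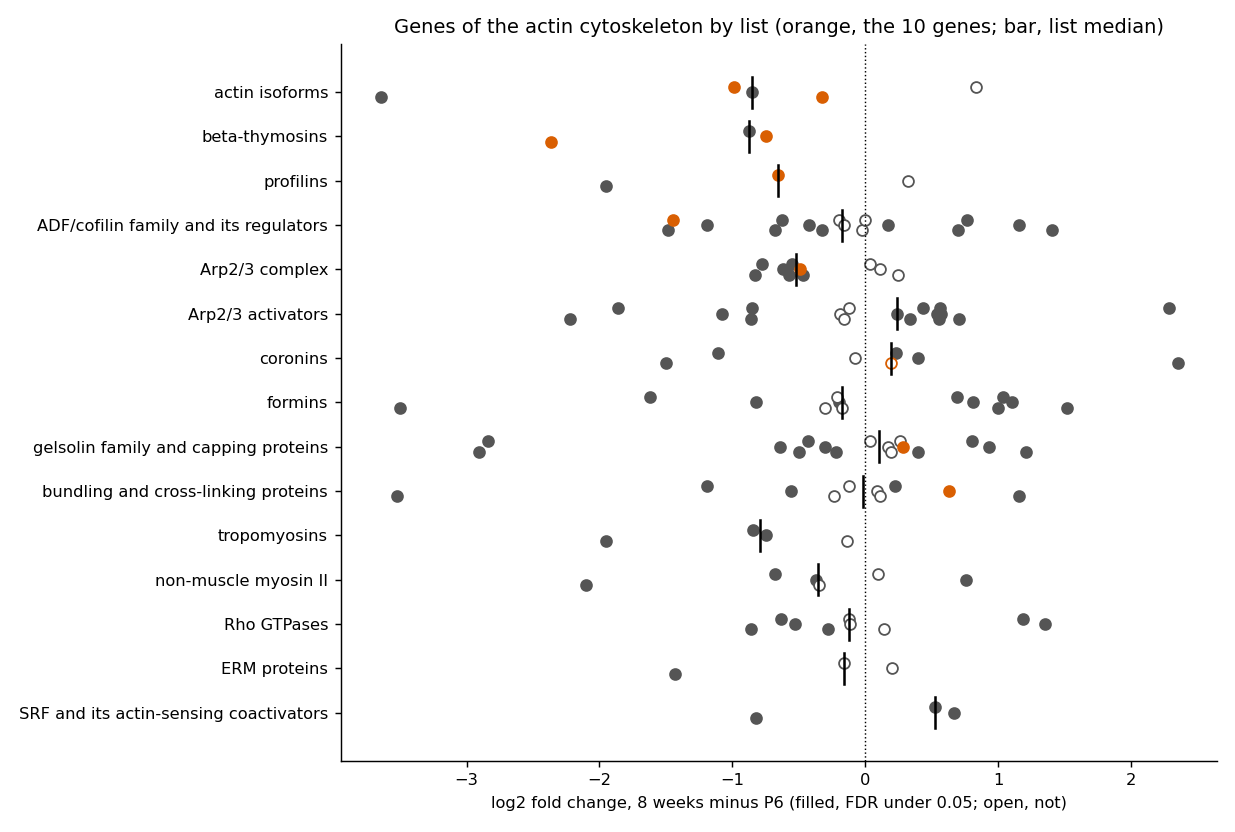
Log2 fold change of 8 weeks minus P6 (x axis) for the 125 tested genes of the 15 actin lists (rows), with orange for the 10 genes, filled symbols at FDR under 0.05 and a bar at each list's median. The Arp2/3 complex clusters left of 0 with a median of -0.52, whereas activators, formins and capping proteins spread to both sides.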

How the data were processed

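CD45+ve cells were isolated from whole brain of 35 mice by immunopanning, and directional paired-end mRNA libraries were sequenced. The submitters' processing notes name fastp 0.20.0, STAR, Subread and featureCounts on GRCm38/mm10. The authors deposited raw counts per gene, counted reverse-stranded, with 1 column per mouse and no normalisation. Actins, thymosins, profilin and cofilin have processed pseudogenes, and whether fragments shared with these altered the counts was not measured. Of 55401 identifiers, 55141 had a GENCODE M21 name, and this may not be the authors' release. Totals were 23316107 to 38965078 counts.

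Tests covered the 17612 genes reaching 0.5 CPM in 5 or more mice, using edgeR 4.0.16 (quasi-likelihood, TMM, 6 age and sex groups, R 4.3.3), with a call at FDR under 0.05 and a second call past 2-fold. SE is the log2 fold change over the root of F. Paralog ratios used 0.5 added counts and 100000 permutations (scipy 1.17.1), adjusted over 12 tests. Alternatives included limma 3.58.1 and DESeq2 1.42.0. The fit was tested on simulated data. Within groups, 85 pairs were compared and none were copies. The 10 genes and all lists were chosen with earlier results of these data known. Named genes were the 10, and of each list the 2 called genes that rose most and the 2 that fell most over the whole interval. Other Arp2/3 subunits, Acta2, Rdx and Msn were named after their values were seen. The labels number mice, but same-numbered mice are different animals. Mice are the replicates, and the labels name no batch. Counts for Myl12b were not used, since its name matched 2 identifiers. The result for 1 gene that the naming rule selects is not reported here.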

Additional observations from a re-analysis of the deposited data

Results flagged for a closer look

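The levels of the 10 genes were searched for a mouse far from the others of its age and sex group, and 3 of 60 sets held one by Dixon's criterion, where chance gives about 1 in 20. Tmsb10 was 261.7 CPM in P15 male 1, against 75.9 to 115.3 in the other P15 males. Actg1 was 704.7 CPM in P15 female 2, against 879.9 to 979.5 in the other P15 females. Actg1 was 860.5 CPM in 8 weeks female 5, against 659.4 to 722.3 in the other 8-week females. The change from P6 to 8 weeks passed the test of a difference between the sexes for 0 of the 10 genes (edgeR), with 1 at an unadjusted p under 0.05, and the steps from P6 to P15 and from P15 to 8 weeks were not tested for one.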

How the results depend on the processing

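Across alternatives, the falls of Actg1, Tmsb4x, Tmsb10, Pfn1, Cfl1 and Arpc2 from P6 to P15 and from P6 to 8 weeks kept their direction and their call. The count of risers from P6 to 8 weeks went from 2 to 1 (Capg lost) with library-size scaling, limma-voom, no filter, at least 10 counts in every mouse, the replicate block, and each of 7 mice left out in turn (1 to 1), and to 0 with the neural marker covariate. Leaving out 1 mouse gave 0 to 1 risers from P6 to P15, against 0. With the neural covariate, risers from P15 to 8 weeks went from 2 to 0 and fallers from 4 to 7 (3 with all 35 mice, and 5 with library-size scaling and without P15 female 2 or 8 weeks male 4), fallers past 2-fold from 1 to 0 (P6 to P15) and from 2 to 5 (P6 to 8 weeks), risers within females and within males from 1 to 0 each, and the wider lists from 14 up and 35 down to 27 and 60 (P15 to 8 weeks). That covariate also reversed Coro1a (-0.29, -0.43 and -0.72 for P15 minus P6, 8 weeks minus P15 and 8 weeks minus P6), Lcp1 (-0.38, -0.24 and -0.61), Capg (-0.01 and -0.46 for the last 2) and Arpc2 (-0.55 for 8 weeks minus P15), and within females and males Coro1a (-0.86 and -0.57), Capg (-0.54 and -0.38) and Lcp1 (-0.67 and -0.56). The cause was not tested. Library-size scaling reversed Coro1a from P6 to P15 (-0.042) and within females (-0.01). The near-0 change of Arpc2 from P15 to 8 weeks turned to -0.003 with library-size scaling, -0.005 with DESeq2 size factors, DESeq2 or at least 10 counts, -0.008 without a filter, and -0.068 to 0.004 with 1 mouse left out. All 35 mice turned the Cfl2 to Cfl1 ratio from P6 to P15 to -0.07. Longest-transcript lengths raised every level per kilobase without changing the order of the 10 genes. Pairing by replicate number found same-numbered mice no closer than others (median r 0.03 over 80 pairs and -0.01 over 400), and the block gave 1 riser and 7 fallers from P6 to 8 weeks. Depth did not limit the 10 genes, and the number of mice limits the precision. Leaving out P15 female 2, P15 male 1 or 8 weeks male 4 and the slopes on the neural marker level were chosen after seeing the data.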
